A study of Rattus norvegicus with 18 samples.

Results

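Fgf21, Gdf15, Angptl4, Ucp2, Ucp3, Acot1, Acot2 and Mlycd were followed in the left ventricle of rats with metabolic heart disease. These are 8 genes that report on fat supply, fat burning and metabolic stress, and they were picked by symbol from the authors' lists of changed genes, which name 6588 genes in at least 1 of 3 comparisons. Of the 8 genes, 6 were listed at least once, and Gdf15 and Ucp2 were listed in none of the 3 tables. The 18 male rats were 6 ZSF1 obese, 6 ZSF1 lean and 6 WKY animals. Labels call ZSF1 obese rats hypertensive with metabolic syndrome and use them as the group with heart failure with preserved ejection fraction, ZSF1 lean rats the hypertensive group, and WKY (Wistar Kyoto) rats the control. ZSF1 rats are hybrids of rat strains bred for diabetes and for hypertensive heart failure, and the obese animals lack a working leptin receptor. Lean ZSF1 rats share the hybrid background but not the obesity, whereas WKY is a separate strain, so strain and disease differ together in every comparison with WKY. No age or treatment is stated, and the labels' batch entry is the same for all rats, so the labels record no batch difference between the groups.

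For each listed gene the authors give a fold, the level in the first-named group over that in the other, and an adjusted p-value (false discovery rate). Every listed fold was 2 or more, or 0.5 or less, with an adjusted p under 0.05. No values per rat and no read depths were used here, so the authors' adjusted p is the sole measure of error, and a gene missing from a list may have changed less, varied more or been barely detected. There were 5700 genes in the list for obese over lean, 5709 in that for obese over WKY and 233 in that for lean over WKY. Since the genes were chosen with these folds known, their folds are a description and no test is drawn from them.

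Fatty acids that enter a heart muscle cell are tied to coenzyme A, carried into mitochondria through carnitine palmitoyltransferase and oxidised. They also bind PPAR receptors, which pair with RXR receptors on DNA and raise the transcription of genes that import, burn and store fat. Angptl4, Ucp2, Ucp3, Acot1, Acot2, Mlycd and Fgf21 are all known as PPAR targets in one tissue or another. Fgf21 and Gdf15 are in addition hormones that cells release under stress, and both are known targets of ATF4, the transcription factor of the integrated stress response.

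In obese hearts the genes parted. Fgf21 and Angptl4, which encode secreted proteins, rose against both lean and WKY hearts. Ucp3, Acot2 and Mlycd, which encode enzymes or carriers of the muscle cell, fell against both. Acot1 fell against lean hearts and was not listed against WKY. In ZSF1 obese against ZSF1 lean hearts 2 of the 8 genes rose and 4 fell, and in obese against WKY hearts 2 rose and 3 fell. As background, 22.8% of RefSeq protein-coding symbols were listed in the first comparison (12.0% higher, 10.7% lower) and 22.9% in the second (12.3% higher, 10.6% lower). In lean against WKY hearts 1 of the 8 genes was listed, Acot1, which rose, against a background of 0.881% of symbols listed (0.592% higher, 0.289% lower).

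**Figure D1:**
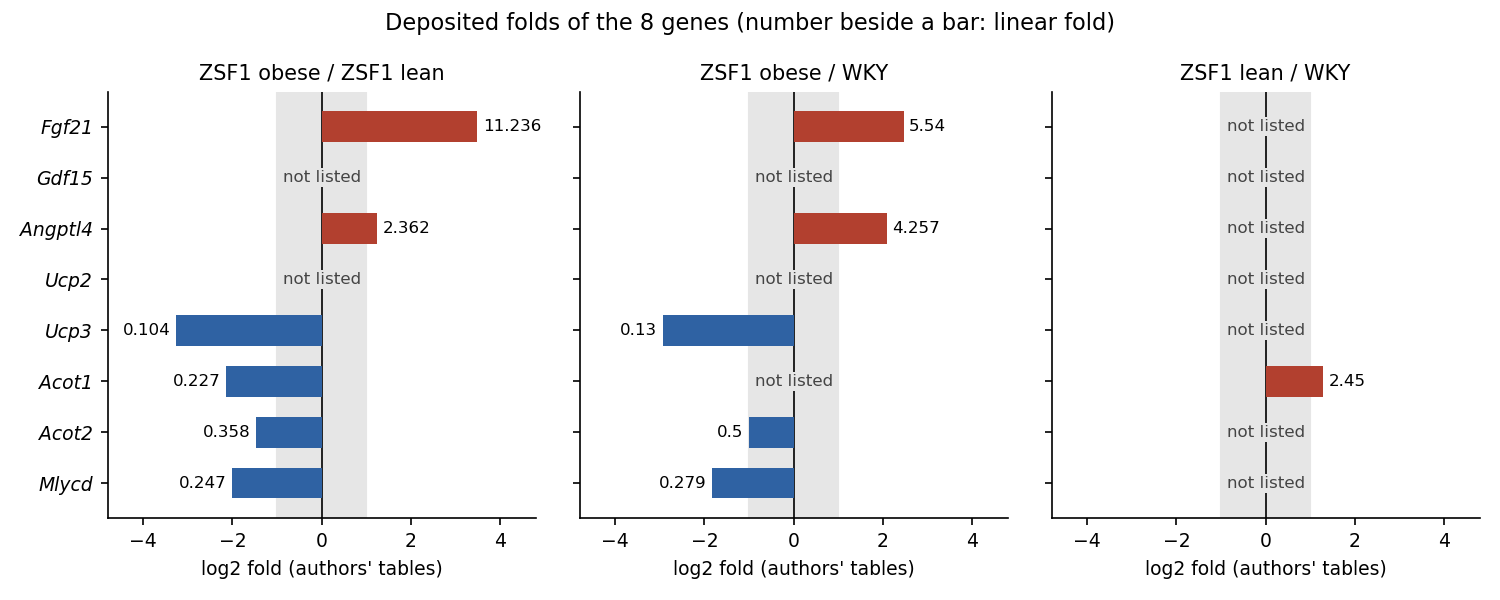
Authors' log2 folds (horizontal axis) of the 8 genes in ZSF1 obese over ZSF1 lean, ZSF1 obese over WKY and ZSF1 lean over WKY hearts, with the linear fold printed beside each bar. Red bars are higher and blue bars lower in the first group, the grey band covers folds between 0.5 and 2, and "not listed" marks a gene missing from that table, whatever its fold. Fgf21 and Angptl4 point right in both obese panels, and Ucp3, Acot2 and Mlycd point left in both.

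Promoters of 3 of these genes are shown because they represent both directions: Fgf21 and Angptl4 rose, and Ucp3 had the lowest listed fold of the 8 in both obese comparisons. Each is the RefSeq window on build GRCr8 from 250 bases before to 50 bases after the annotated start, 5′ to 3′ on the gene's own strand. Fgf21 lies at chr1:105221327-105221626 (minus strand), Angptl4 at chr7:15258632-15258931 (minus strand) and Ucp3 at chr1:164227660-164227959 (plus strand). Capitals mark TGATGNAA, the core bound by ATF4, AGGTCA, a single copy of the PPAR and RXR element, and ACGTG, the core bound by hypoxia-inducible factors, each on either strand.
Fgf21: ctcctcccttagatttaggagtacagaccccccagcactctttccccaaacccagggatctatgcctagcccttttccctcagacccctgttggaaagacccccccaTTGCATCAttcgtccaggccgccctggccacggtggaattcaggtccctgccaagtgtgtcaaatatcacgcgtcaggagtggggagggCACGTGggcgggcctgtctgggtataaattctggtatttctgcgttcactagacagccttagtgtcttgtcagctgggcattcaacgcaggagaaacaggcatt
Angptl4: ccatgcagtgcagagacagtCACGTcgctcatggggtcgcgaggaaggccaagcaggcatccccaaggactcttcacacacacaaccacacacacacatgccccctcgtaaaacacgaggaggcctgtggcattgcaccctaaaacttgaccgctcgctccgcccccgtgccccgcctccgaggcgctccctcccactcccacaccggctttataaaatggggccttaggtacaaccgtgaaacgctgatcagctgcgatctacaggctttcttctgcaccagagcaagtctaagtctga
Ucp3: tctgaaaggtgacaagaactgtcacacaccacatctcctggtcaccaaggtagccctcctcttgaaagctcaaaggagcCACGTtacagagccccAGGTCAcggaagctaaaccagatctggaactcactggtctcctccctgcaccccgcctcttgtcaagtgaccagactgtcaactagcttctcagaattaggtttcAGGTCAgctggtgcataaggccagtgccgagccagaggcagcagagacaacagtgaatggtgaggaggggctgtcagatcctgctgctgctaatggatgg

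Fgf21 was the 1 gene of the 8 with a TGATGNAA match, on the opposite strand from position -143 relative to the start, and 3.98% of 33365 distinct RefSeq promoter windows hold this motif. Ucp3 and Gdf15 held AGGTCA, which 16.2% of windows hold, at positions -155 and -50 in Ucp3 and in both annotated windows of Gdf15. ACGTG, found in 19.3% of windows, occurred in Fgf21 (in the palindrome CACGTG, so on both strands), Angptl4 and Ucp3. The full element AGGTCANAGGTCA was in none of the 8 genes' windows and in 0.0539% of all windows. With up to 2 mismatches it was found in Gdf15 and Ucp3, in each overlapping a single AGGTCA, and in 3.78% of all windows. The windows of Ucp2, Acot1, Acot2 and Mlycd held none of these letters exactly. These matches describe sequence and show no binding.

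Of the 3 genes among the 8 that encode secreted proteins, Fgf21, Gdf15 and Angptl4, 2 have values, and Fgf21 had the larger fold in both obese comparisons. Fgf21 (ENSRNOG00000020990) encodes fibroblast growth factor 21, a hormone best known from fasting liver that is also released by stressed heart and skeletal muscle. In the authors' deposited table its fold was 11.236 in ZSF1 obese against ZSF1 lean hearts (log2 fold 3.49, adjusted p = 9.54e-09). Against WKY the authors' deposited table gave 5.54 (log2 fold 2.47, adjusted p = 1.03e-04). Fgf21 therefore ranked 53rd by size among the 3045 genes that rose against lean hearts and 372nd among the 3084 that rose against WKY. Its adjusted p ranked much lower than its fold, 1877th and 2410th in the same lists. Bcat2, its neighbour in RefSeq order and a branched-chain aminotransferase of mitochondria, moved the other way, at 0.145 of the lean level and 0.204 of the WKY level in the authors' deposited tables.

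Angptl4 (ENSRNOG00000007545) encodes angiopoietin-like 4, a secreted inhibitor of lipoprotein lipase, the enzyme that frees fatty acids from circulating fat at the vessel wall. For obese over lean hearts the authors' deposited table gave Angptl4 a fold of 2.362 (log2 fold 1.24, adjusted p = 6.71e-05). Against WKY the deposited fold of the authors' table was 4.257 (log2 fold 2.09, adjusted p = 5.39e-05). It ranked 2393rd and 736th by size among the genes that rose, so it lay near the lower edge of the rising genes against lean hearts and in their upper part against WKY. Fgf21 thus had its larger fold against lean hearts and Angptl4 its larger fold against WKY. Gdf15, a hormone that acts on the hindbrain through the receptor GFRAL, was listed in none of the 3 tables, so no value can be given for it.

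Of the uncoupling proteins Ucp2 and Ucp3, carriers of the inner mitochondrial membrane, the muscle form Ucp3 was listed and Ucp2 was not. The authors' deposited table put Ucp3 (ENSRNOG00000017716) in obese hearts at 0.104 times its lean level (log2 fold -3.27, adjusted p = 5.04e-60). The authors' deposited table against WKY gave 0.13 (log2 fold -2.94, adjusted p = 4.90e-29). Ucp3 ranked 166th by size among the 2655 genes that fell against lean hearts and 284th among the 2625 that fell against WKY. Ucp2, the form expressed in many tissues, is the next protein-coding gene after Ucp3 in RefSeq order on chromosome 1 and was listed in no table. Whether the pair differ in their change was not tested, since Ucp2 has no value.

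The thioesterases Acot1 (cytosolic) and Acot2 (mitochondrial) split fatty acyl-CoA into free fatty acid and coenzyme A. The authors' deposited table put Acot2 (ENSRNOG00000010134) in obese hearts at 0.358 times its lean level (log2 fold -1.48, adjusted p = 4.39e-10). Against WKY it stood at 0.5 in the authors' deposited table (log2 fold -1, adjusted p = 2.43e-05), on the very edge of what the list holds, and ranked 2588th of 2625 falling genes by size. Acot1 (ENSRNOG00000055221) stood at 0.227 of the lean level (log2 fold -2.14, adjusted p = 2.81e-08) and was listed higher in lean against WKY hearts with a fold of 2.45 (log2 fold 1.29, adjusted p = 1.09e-07), both in the authors' deposited tables. Multiplying the folds of obese to lean and lean to WKY gives 0.556 for Acot1 in obese against WKY hearts, which lies inside the band of 0.5 to 2 that the lists leave out. That product joins tables of unlike scale, since for 79 of the 79 genes listed in all 3 tables the authors' deposited lean to WKY fold was nearer to 1 than the ratio the obese tables imply. Acot1 was the sole one of the 8 genes with a listed difference between lean and WKY hearts. Acot1 and Acot2 are neighbouring genes of similar sequence on chromosome 6, and the handling of reads that match both copies is not known, so the division between them is uncertain.

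Mlycd (ENSRNOG00000014522) encodes malonyl-CoA decarboxylase, which removes malonyl-CoA, the inhibitor of fatty acid entry into mitochondria. Obese hearts had Mlycd at 0.247 of the lean level (log2 fold -2.02, adjusted p = 1.79e-21) and at 0.279 of the WKY level (log2 fold -1.84, adjusted p = 6.00e-17) in the authors' deposited tables. These folds were close to the median of the falling genes in each table, 0.314 against lean and 0.312 against WKY hearts. Mlycd ranked 874th and 1081st by size among them.

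**Figure D2:**
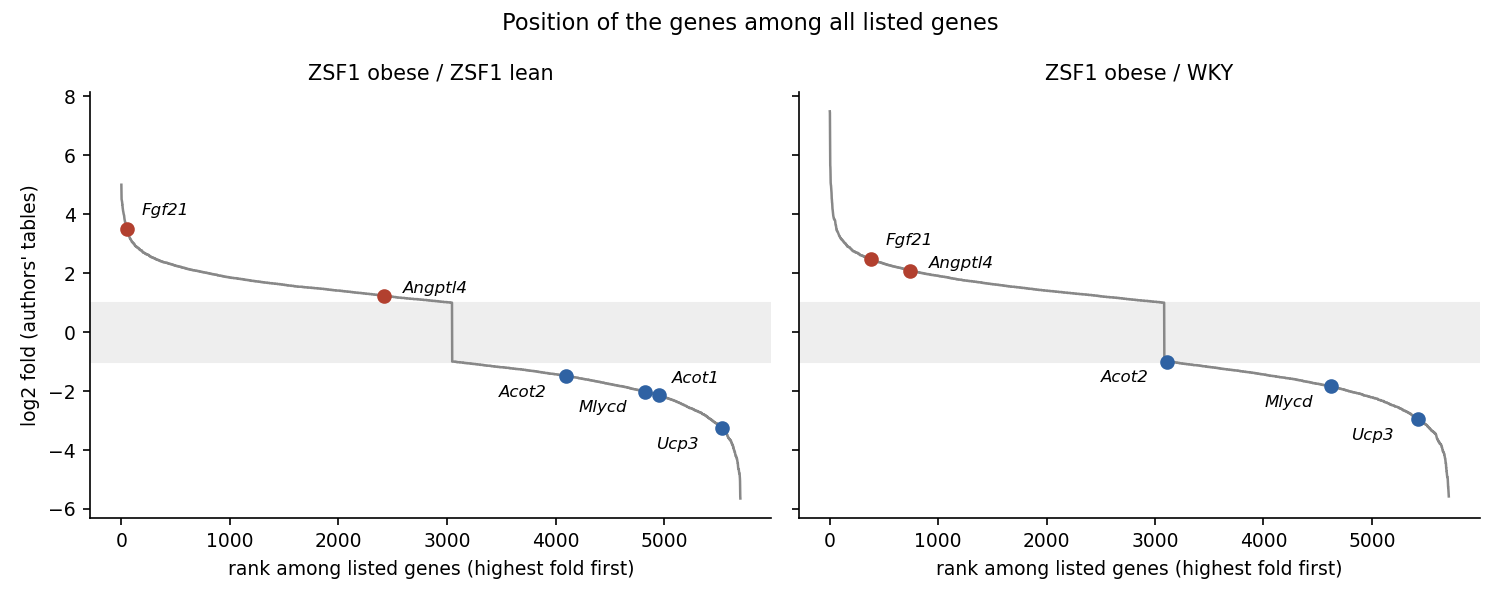
All listed genes ordered by log2 fold (vertical axis) from highest to lowest (rank on the horizontal axis) in ZSF1 obese over ZSF1 lean and ZSF1 obese over WKY hearts, as a grey curve, with the 8 genes' listed members as points (red higher, blue lower). Fgf21 lies near the upper end against lean hearts at 3.49, Ucp3 toward the lower end at -3.27, and Acot2 against WKY on the edge of the unlisted band at -1.

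Both obese comparisons share the obese rats, so the difference of their log2 folds gives the lean to WKY ratio that they imply, without an error. Over the 4847 genes listed in both, the median of this implied log2 ratio was 0.00, the 5th percentile was -0.66 and the 95th was 0.75. Fgf21 lay outside these percentiles at -1.02, an implied lean level 0.493 times that of WKY, and 1.75% of the genes were at or below it. Angptl4 lay just outside on the other side at 0.85, an implied 1.8-fold, with 3.88% of genes above it. The falling genes lay inside it, with Mlycd at 0.18, Ucp3 at 0.32 and Acot2 at 0.48. None of these 5 genes was listed in the table of lean against WKY.

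**Figure D3:**
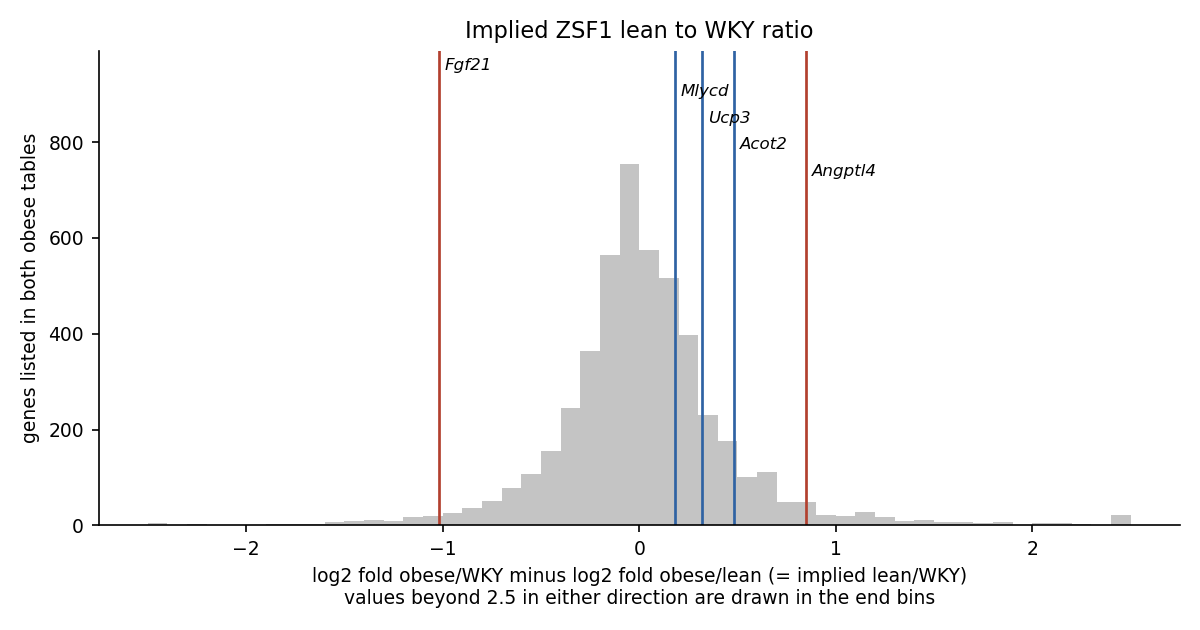
Histogram of the log2 fold of ZSF1 obese over WKY minus that of ZSF1 obese over ZSF1 lean (horizontal axis), which is the implied log2 ratio of lean to WKY, for the 4847 genes listed in both obese tables (vertical axis, number of genes). Vertical lines mark the 5 genes in both, red for those that rose and blue for those that fell in obese hearts. Fgf21 at -1.02 and Angptl4 at 0.85 stand on opposite flanks.

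For each of these 5 genes, the 3 nearest named genes by Euclidean distance over the pair of log2 folds were taken, a measure that rests on the same 18 rats and on 2 values per gene. Fgf21 was nearest to Mir142 (distance 0.07), Clec12b (0.12) and Lilrb3 (0.24), and Angptl4 to Tagap (0.03), Ecrg4 (0.04) and Plau (0.04). Ucp3 was nearest to Mmut (0.02), Myom2 (0.03) and Mief2 (0.08), Acot2 to Hsdl1 (0.03), Cyp2e1 (0.06) and Atl2 (0.07), and Mlycd to Mapk8ip1 (0.01), Neo1 (0.04) and Sugp2 (0.05).

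Receptors and cofactors through which PPAR targets are controlled were listed in both directions, more often as lower. Of 18, 9 fell, 2 rose and 7 were not listed in obese against lean hearts, and 10 fell, 2 rose and 6 were not listed against WKY. Of all symbols, 10.7% were listed lower against lean and 10.6% against WKY hearts. Median log2 folds of the listed genes were -2.89 and -2.55, against 1.07 and 1.08 over all listed genes. With no listed fold between 0.5 and 2, these medians mainly follow the direction of most genes. Ppara, the main PPAR of oxidising tissues, stood at 0.115 of the lean level (adjusted p = 1.63e-62) and 0.116 of the WKY level (adjusted p = 1.15e-55) in the authors' deposited tables. Its partner Rxra stood at 0.426 of the lean and 0.467 of the WKY level, and the coactivator Ppargc1a at 0.135 and 0.097 of these levels, in the authors' deposited tables. The oestrogen-related receptor gene Esrrb, which encodes a nuclear receptor active in heart metabolism, stood at 0.041 of the lean and 0.033 of the WKY level in the authors' deposited tables. Pparg, the PPAR of fat cells and macrophages, rose with folds of 2.713 against lean (adjusted p = 1.38e-11) and 3.784 against WKY hearts (adjusted p = 7.27e-21) in the authors' deposited tables. Nr1h3, which encodes the oxysterol receptor LXR alpha, rose with folds of 2.042 against lean and 2.395 against WKY hearts in the authors' deposited tables. Ppard was listed in none of the tables.

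Other PPAR targets were also listed in both directions, with most of them lower. Of 38 targets, 22 fell and 2 rose in obese against lean hearts and 21 fell and 3 rose against WKY. Median log2 folds of the listed targets were -1.88 and -1.75. Of all symbols, 10.7% were listed lower against lean and 10.6% against WKY hearts. Pdk4, a kinase that inhibits the pyruvate dehydrogenase complex, was among the falls, at 0.060 of the lean level in the authors' deposited table. Rises included Fabp4, a fatty acid binding protein of fat cells, macrophages and vessels, with folds of 4.959 against lean and 5.54 against WKY hearts in the authors' deposited tables. Pex11a, a gene of peroxisome division, rose against WKY alone among the obese tables with a fold of 2.085, and was listed at 2.57 in lean against WKY hearts in the authors' deposited tables.

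**Figure D4:**
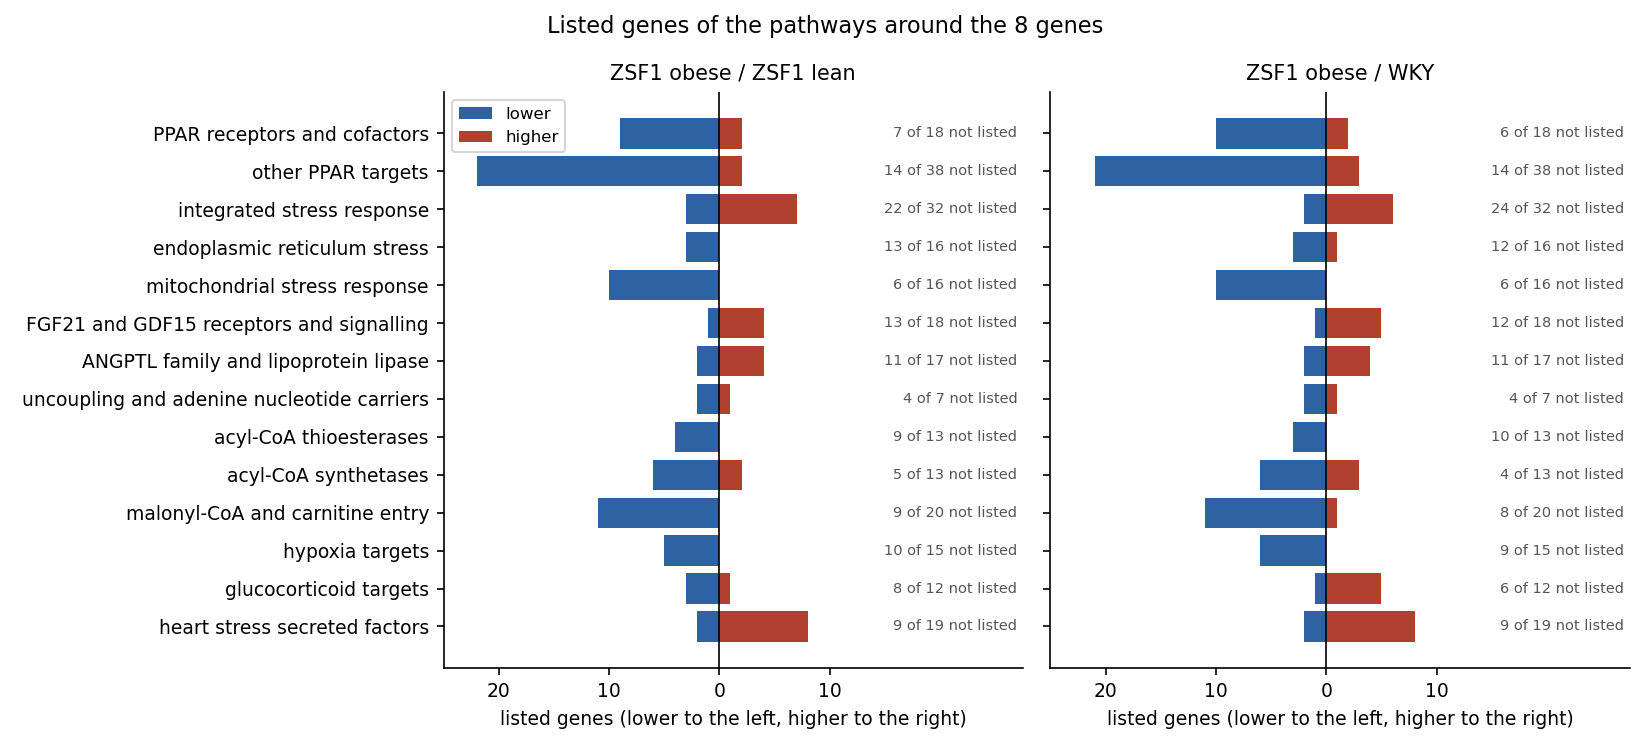
Number of listed genes (horizontal axis, blue to the left for lower, red to the right for higher) in 14 pathway lists for ZSF1 obese over ZSF1 lean and ZSF1 obese over WKY hearts, with the number of genes not listed printed at the right of each panel. Among other PPAR targets 22 genes lie left and 2 right against lean hearts, while the integrated stress response has 3 left and 7 right.

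Genes of the integrated stress response, of which Fgf21 and Gdf15 are targets, were listed in both directions. The list counted here holds upstream kinases and Atf4 as well as targets, and leaves out Fgf21 and Gdf15. Of 32 genes, 7 rose and 3 fell against lean and 6 rose and 2 fell against WKY hearts. The background shares were 22.8% and 22.9% of symbols listed (12.0% and 12.3% higher). Median log2 folds of the listed genes were 1.17 and 1.11. Such medians mainly follow the direction of most listed genes, as no listed fold lies between 0.5 and 2. Most of these changes were small, since past a fold of 3 (or 1/3) 1 rose and 1 fell against lean and 2 rose and 1 fell against WKY hearts. Pck2, the mitochondrial enzyme that makes phosphoenolpyruvate, rose with folds of 3.031 against lean and 3.555 against WKY hearts in the authors' deposited tables. Shmt2, an enzyme of mitochondrial folate metabolism, fell to 0.480 of the lean and 0.42 of the WKY level, and Herpud1, which helps clear misfolded proteins, to 0.426 of the lean level in the authors' deposited tables. Ddit4, an inhibitor of mTOR signalling, had folds of 2.657 against lean and 6.364 against WKY hearts, and it was also higher in lean against WKY hearts at 2.11 in the authors' deposited tables. Vldlr, a receptor for triglyceride-rich lipoproteins that is also in the lipoprotein lipase list, fell to 0.184 of the lean and 0.182 of the WKY level in the authors' deposited tables. Atf4, Atf3, Ddit3 and Trib3 were listed in none of the 3 tables. Of 16 genes of the mitochondrial stress response 10 fell and 0 rose in both obese comparisons, led by the chaperone gene Hspa9 at 0.054 of the lean and 0.068 of the WKY level in the authors' deposited tables. Of 16 genes for stress in the endoplasmic reticulum, 3 fell and 0 rose against lean, and 3 fell and 1 rose against WKY hearts. These counts stood near the same background shares of 22.8% and 22.9% listed, and 0 of these genes passed a fold of 3 (or 1/3).

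Receptors and signalling genes for the hormones gave 4 rises and 1 fall among 18 against lean and 5 rises and 1 fall against WKY hearts, beside the same background shares of 22.8% and 22.9% listed. Past a fold of 3 (or 1/3) the rises numbered 1 against lean and 2 against WKY hearts, with 1 fall in each. Klb, the co-receptor that FGF21 requires, its partner receptor Fgfr1, and the GDF15 receptor genes Gfral and Ret were listed in none of the tables. Fgfr2 rose with folds of 3.074 against lean and 22.943 against WKY hearts, and was higher in lean than in WKY hearts at 3.78 in the authors' deposited tables. Dusp6, a phosphatase that FGF signalling through ERK induces, rose with folds of 2.158 and 2.888, whereas the related Dusp5 fell to 0.316 of the lean and 0.291 of the WKY level in the authors' deposited tables.

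Around Angptl4, the angiopoietin-like genes Angptl1, Angptl2, Angptl6, Angptl7 and Angptl8 were listed in no table. Lpl, which encodes the lipase that ANGPTL4 inhibits, fell to 0.268 of the lean level (adjusted p = 3.57e-39) and 0.31 of the WKY level (adjusted p = 3.34e-29) in the authors' deposited tables. The inhibitor's transcript and that of its target enzyme were thus listed in opposite directions. Gpihbp1, which anchors the lipase in capillaries, and Lmf1, its folding factor, were listed in no table. Apoe, a lipoprotein gene expressed by macrophages among other cells, rose with folds of 6.409 and 9.063 in the authors' deposited tables.

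Among 7 further uncoupling and adenine nucleotide carriers 1 rose and 2 fell in each obese comparison. Of all symbols, 22.8% were listed against lean and 22.9% against WKY hearts. Slc25a27, also called UCP4 and known from brain, rose with folds of 3.182 and 2.144, and Slc25a30, a relative known from kidney, fell to 0.130 of the lean and 0.2 of the WKY level in the authors' deposited tables. Slc25a4, the muscle form of the ADP/ATP carrier, was listed against lean hearts at 0.486 and Slc25a5, its widely expressed relative, against WKY at 0.5 in the authors' deposited tables. Ucp1, the uncoupling protein of brown fat, was listed in no table.

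Further thioesterases were listed as lower only. Of 13, 4 fell against lean and 3 against WKY hearts, and 0 rose in either. Of all symbols, 22.8% and 22.9% were listed (10.7% and 10.6% lower), so the share of thioesterases listed against WKY was near the background. Acot11, which acts on long-chain acyl-CoA, stood at 0.109 and 0.119, and Them4 at 0.200 and 0.152 of the lean and WKY levels in the authors' deposited tables. Acot4, a relative from the same chromosome 6 cluster as Acot1 and Acot2, fell to 0.374 of the lean level (adjusted p = 0.00215), and Acot3 to 0.493 in the authors' deposited table. Neither was listed against WKY, where Acot1 was also missing and Acot2 stood on the edge of the list.

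Genes that make malonyl-CoA fell together with Mlycd, which removes it. Acacb, the acetyl-CoA carboxylase of mitochondria, stood at 0.384 of the lean and 0.409 of the WKY level, and Acaca, the cytosolic form, at 0.441 and 0.418 in the authors' deposited tables. Prkaa2, a catalytic subunit of the AMP-activated protein kinase that inhibits both carboxylases, stood at 0.036 and 0.029, with adjusted p-values given as 0 in the authors' deposited tables. Cpt1b, the carnitine palmitoyltransferase of muscle on which malonyl-CoA acts, stood at 0.213 and 0.182 in the authors' deposited tables. Of all symbols, 10.7% were listed lower against lean and 10.6% against WKY hearts. In this list of 20 genes, 11 fell and 0 rose against lean hearts (median log2 fold -1.83). Against WKY 11 fell and 1 rose (median -1.62). The rise was that of Fasn, the fatty acid synthase, which the authors' deposited table gave a fold of 2.621.

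**Figure D5:**
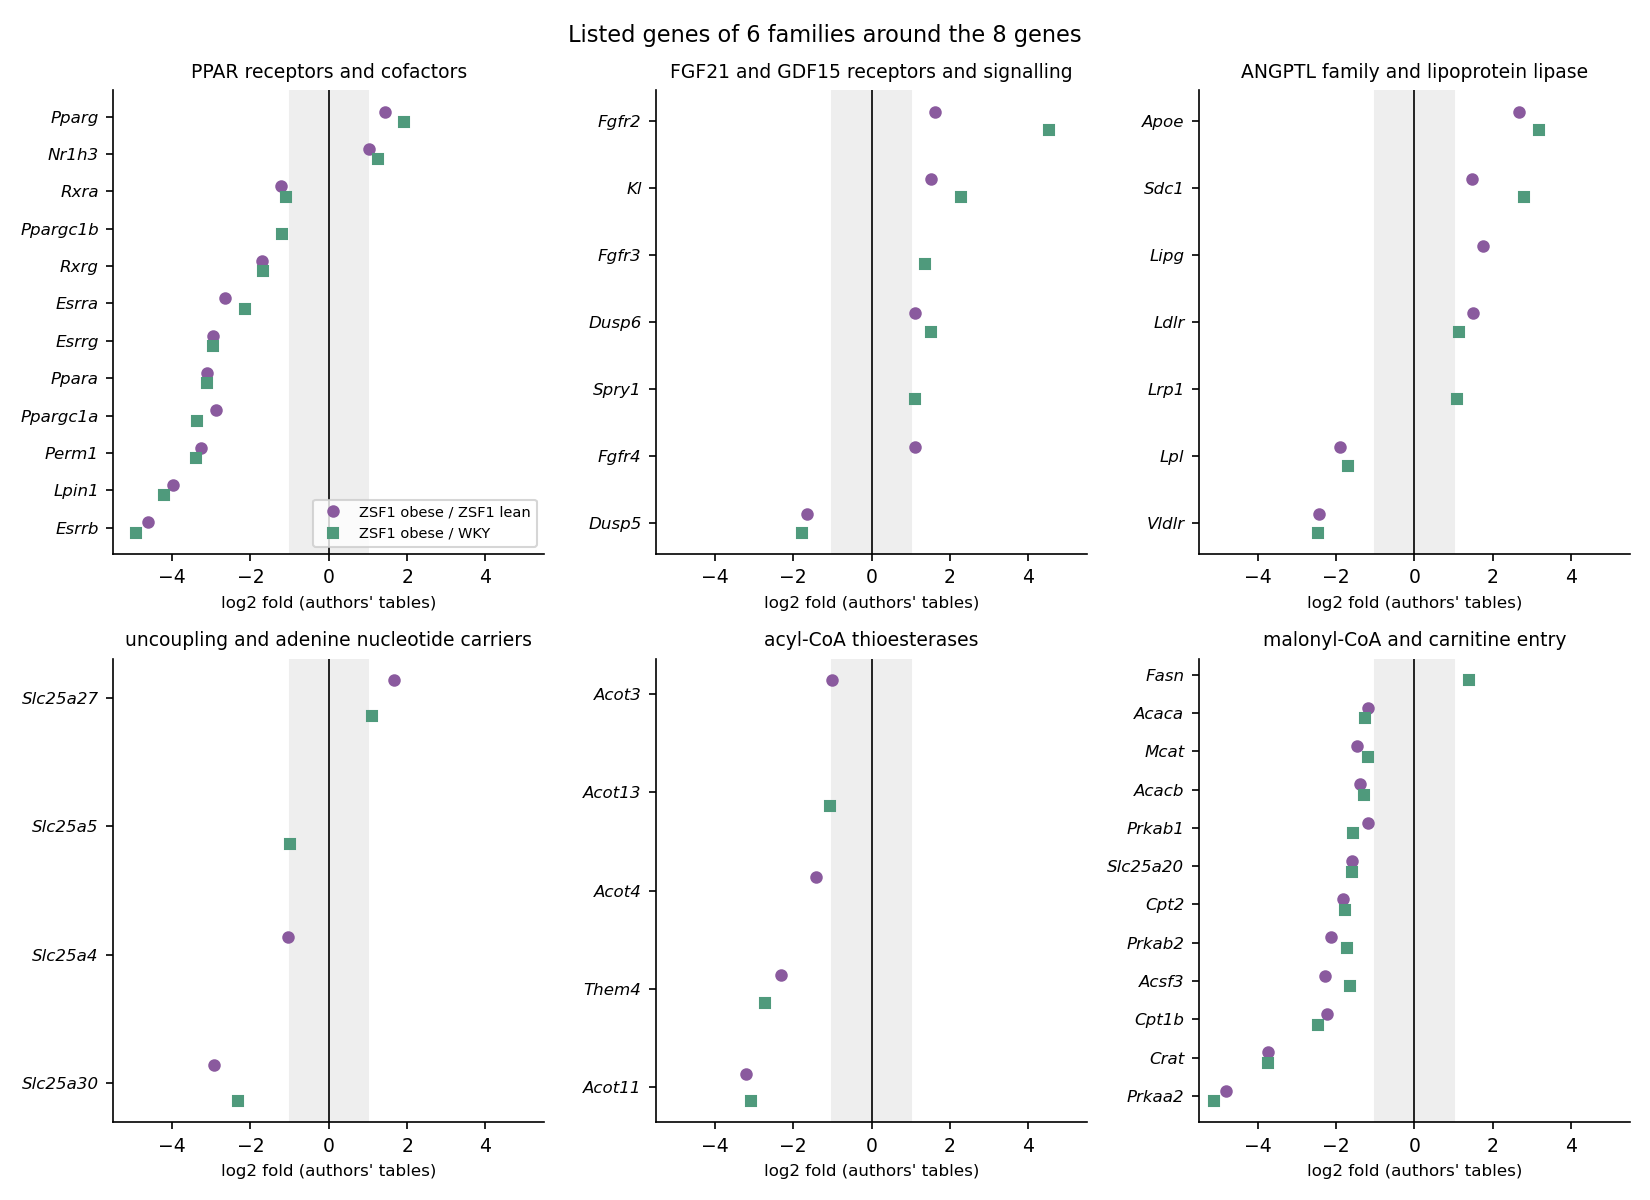
Authors' log2 folds (horizontal axis) of the listed genes in 6 families around the 8 genes, with purple circles for ZSF1 obese over ZSF1 lean and green squares for ZSF1 obese over WKY hearts, and a grey band over folds of 0.5 to 2. Ppara and Lpl lie left of the band in both comparisons, Pparg and Fgfr2 right of it, and the listed thioesterases all lie left of 0.

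Hypoxia and glucocorticoid signals are known to raise Angptl4 as well, and their part in its change here was not tested. The background was 12.0% of symbols higher and 10.7% lower against lean, and 12.3% higher and 10.6% lower against WKY hearts. Of 15 hypoxia genes (regulators and targets) 5 fell and 0 rose against lean, and 6 fell and 0 rose against WKY hearts. Pdk1 stood at 0.094 and Egln3 at 0.136 of the lean level in the authors' deposited table. Of 12 glucocorticoid genes (the receptor and targets) 1 rose and 3 fell against lean, but 5 rose and 1 fell against WKY hearts. Past a fold of 3 (or 1/3) these counts became 0 and 0 against lean, and 2 and 0 against WKY hearts. Sgk1, a kinase induced by corticosteroids, rose in both with folds of 2.809 and 3.681, and Fkbp5, another target, fell in both to 0.337 and 0.448 in the authors' deposited tables. Tsc22d3, a glucocorticoid-induced leucine zipper gene, and the metallothionein gene Mt2A rose against WKY hearts with folds of 2.144 and 3.34 in the authors' deposited table and were not listed against lean hearts.

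Markers of cell types moved in the same tables. The background for their counts was 22.8% of symbols listed against lean (12.0% higher, 10.7% lower) and 22.9% against WKY hearts (12.3% higher, 10.6% lower). In lean against WKY hearts it was 0.881%. Cardiomyocyte markers fell in 7 of 12 cases and rose in 0 in each obese comparison, with median folds over the 7 listed markers of 0.301 against lean and 0.287 against WKY hearts. Those of macrophages rose in 11 of 12 and 12 of 12 cases with median folds of 3.32 and 4.53, those of endothelium in 10 of 12 in both with 3.52 and 3.23, and those of fibroblasts in 8 and 10 of 12 with 5.28 and 4.04, each median being over the listed markers. Lymphocyte markers rose in 8 of 12 cases in both (median folds 3.49 and 2.85), and those of smooth muscle and pericytes rose in 4 and fell in 1 of 10 in both (2.93 and 6.28). Neutrophil markers rose in 8 of 10 cases against lean with a median fold of 9.35, and in 3 of 10 against WKY with 3.36, and in lean against WKY hearts 4 of 10 fell with a median fold of 0.34. Medians of fibroblast, endothelium, lymphocyte and neutrophil markers were larger against lean than against WKY hearts. Those of macrophage and of smooth muscle and pericyte markers were smaller. The listed markers differ in part between the comparisons (8 and 3 for neutrophils), and single markers went both ways. Against lean and WKY hearts, the authors' deposited tables gave folds of 19.973 and 31.559 for Postn but 7.210 and 4 for Fn1, both of fibroblasts. For endothelium they gave 3.531 and 4.563 for Esam but 3.506 and 2.585 for Emcn. For lymphocytes they gave 4.857 and 5.169 for Cd8a but 2.514 and 2.204 for Nkg7. Fgf21 had folds of 11.236 against lean and 5.54 against WKY hearts in the authors' deposited tables. It was not listed in lean against WKY hearts, and which cells express it was not tested. In whole tissue, fewer cells of a type and less RNA per cell cannot be told apart. Beside these cardiomyocyte medians, which leave out the 5 unlisted markers, folds in the authors' deposited tables were 0.358 and 0.5 for Acot2, 0.247 and 0.279 for Mlycd, 0.104 and 0.13 for Ucp3, and 0.227 against lean hearts for Acot1. Of 12 white fat cell markers 3 rose and 2 fell in each obese comparison, while Adipoq, Lep, Plin1 and Cidec were listed in no table. Fabp4, Cfd and Lipe rose, with folds of 4.959, 4.408 and 2.114 against lean and 5.54, 7.16 and 2.77 against WKY hearts in the authors' deposited tables. Adipor2 and Aqp7 fell, to 0.261 and 0.146 of the lean and 0.274 and 0.182 of the WKY level in the authors' deposited tables. Brown fat markers fell in 2 and rose in 0 of 10 cases in both. The 2 were Ppargc1a and Cidea, which are also counted among the PPAR cofactors and the other PPAR targets. Of 8 liver markers 2 fell and 0 rose against lean and 2 fell and 2 rose against WKY hearts. The part of these cell types in the 8 genes' changes was not tested, and marker levels per group were not used here.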

How the data were processed

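Left ventricular mRNA of 18 rats was sequenced. The submitters' processing notes name the build Rnor_6.0 with DESeq2 1.22.2, HTSeq 0.11.2 and HISAT2 2.1.0. Settings, strand handling and read depth per rat are not given in these sources. Per the file headers, the authors deposited a linear fold (ratio) and an FDR (adjusted p-value) for each listed gene, from 6 rats a group. From these columns log2 folds, ranks, counts and medians were computed with pandas 2.3.3. No fit across genes and no set test was made. The 8 genes, the 14 pathway lists and the 10 marker lists were chosen with earlier results of these data known. Named genes are the 8, listed members of their families, and up to 4 per list by adjusted p. Chosen outside it with values in view were Bcat2, Hsd17b14, Fut1, Izumo1, Fabp4, Pex11a, Cfd, Lipe, Adipor2, Aqp7, Spp1, Mstn, Inhba, Nppb, Fgf2, Slc27a6, Sesn2, Phgdh, Mthfd2, Chac1, Aldh1l2, Cebpb, Asns and Cidea. Some genes that the rule covers appear only in the counts. The background counts RefSeq protein-coding symbols (GRCr8, 23148), since the genes tested by the authors are not known here. Symbols were matched to RefSeq for 93.1%, 93.4% and 88.8% of the 3 tables. RefSeq promoter windows were found for all 8 genes. The planned comparison of protein sequences was not made, as no protein sequences were used here. The motif search was tested on simulated data. Alternatives were stricter thresholds, centring and mismatches.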

Additional observations from a re-analysis of the deposited data

How the results depend on the processing

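At an adjusted p under 0.01 or under 0.001 the counts of the 8 genes that rose and fell stayed as given in all 3 comparisons. With the fold limit raised to 3 (or 1/3) the count of falling genes was 3 in obese against lean and 2 in obese against WKY hearts, both without Acot2. The count of rising genes was then 1 in obese against lean hearts (Fgf21, without Angptl4) and 0 in lean against WKY hearts. With a limit of 4 (or 1/4) these counts were again 1 and 0, and 1 gene fell in obese against WKY hearts (Ucp3). Taken relative to the median log2 fold of all listed genes, the median of the listed members was -2.82 (obese to lean), -2.08 (obese to WKY) and 0.20 (lean to WKY). No member changed sign, and the nearest to 0 was Angptl4 against lean hearts at 0.17. That median lies among the rising genes of lists with no fold between 0.5 and 2, so it is no neutral centre. At the limit of 3, distinct pathway genes that rose numbered 12 in place of 31 against lean, 20 in place of 39 in obese against WKY and 1 in place of 6 in lean against WKY hearts, and 48 in place of 73 fell in obese against WKY hearts. By list, the limit of 3 moved the falls of the mitochondrial stress response to 6 of 16 against WKY, those of the 13 further thioesterases to 2 against lean, those of the malonyl-CoA list to 7 of 20 in both obese comparisons, and the rises of the secreted heart factors to 4 of 19 against lean hearts. Rises among PPAR receptors and cofactors went from 2 to 0 against lean and from 2 to 1 against WKY hearts. Those among other PPAR targets went from 2 to 1 against lean hearts. In the list of ANGPTL and lipoprotein lipase genes the rises went from 4 to 2 in both obese comparisons. The element AGGTCANAGGTCA was in 2 genes' windows with up to 2 mismatches and in 0 exactly. Leaving out each rat needs values per rat and was not run. No paired analysis was possible because no replicate number occurs in more than 1 group and the tables hold no values per rat.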

Other observations

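Other secreted factors of the stressed heart moved beside Fgf21 and Angptl4. Of 19 such genes, 8 rose and 2 fell in each obese comparison. The background was 12.0% of symbols higher and 10.7% lower against lean, and 12.3% higher and 10.6% lower against WKY hearts. Spp1, which encodes osteopontin, rose with folds of 10.196 against lean and 30.484 against WKY hearts, and Timp1, an inhibitor of matrix proteases, with 8.340 and 9.58 in the authors' deposited tables. Mstn, which encodes the muscle growth inhibitor myostatin, rose with folds of 2.694 and 3.053, and the activin subunit genes Inhba and Inhbb with 2.585 and 2.028 against lean hearts in the authors' deposited tables. Nppb, which encodes B-type natriuretic peptide, and Fgf2 were the 2 that fell, at 0.480 and 0.253 of the lean level in the authors' deposited table.

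Acyl-CoA synthetases, which make what the thioesterases split, were divided in direction. Of 13 genes, 2 rose and 6 fell against lean and 3 rose and 6 fell against WKY hearts. The background was 12.0% of symbols higher and 10.7% lower against lean, and 12.3% higher and 10.6% lower against WKY hearts. Acss1, the acetate-activating enzyme of mitochondria, stood at 0.097 of the lean and 0.113 of the WKY level, and Acsl1, the main long-chain form of heart, at 0.171 and 0.165 in the authors' deposited tables. Acsl5, a form best known from intestine and liver, rose with folds of 3.182 and 3.364, and the fatty acid transporter gene Slc27a6 with 5.816 and 3.837 in the authors' deposited tables.

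The lean against WKY table is on a different scale from the others. For the 79 genes listed in all 3 tables, the authors' lean fold was nearer to 1 than the ratio implied by the obese tables in 79 cases. The median size of the log2 fold was 1.27 as deposited by the authors and 1.73 as implied. The largest adjusted p in that table was 3.47e-04, against 0.0498 and 0.0499 in the obese tables. The product of folds given for Acot1 in obese against WKY hearts, 0.556, mixes these scales. The cause was not tested.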
